A study of Drosophila melanogaster with 14 samples.

Results

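The genes described here encode the subunits of the Mediator complex and of RNA polymerases I, II and III in Drosophila melanogaster. They were chosen by current FlyBase symbol: every gene named MED followed by a digit or Polr1, Polr2 or Polr3, plus the Mediator genes skd, kto, CycC and Cdk8. The choice gave 59 genes, 29 of Mediator, 7 of polymerase I, 13 of polymerase II and 10 of polymerase III, out of 16073 genes listed in the count tables. Polymerase I is counted here with Polr1C and Polr1D, and polymerase II with Polr2E, Polr2F, Polr2H, Polr2K and Polr2L, which are shared between polymerases. Polymerase II makes messenger RNA, polymerase I makes the precursor of the large ribosomal RNAs, and polymerase III makes transfer RNAs and other small RNAs. Mediator carries signals from DNA-bound transcription factors to polymerase II: its head and middle modules contact the polymerase, its tail contacts activators, and a detachable kinase module of skd, kto, CycC and Cdk8 regulates the rest. Most of these subunits belong to the basic machinery of every cell, and skd and kto are also known in the fly for their part in wing and eye patterning.

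RNA was sequenced from embryonic nuclei isolated by INTACT, in which a tag expressed in a chosen tissue allows its nuclei to be pulled out of a lysate. The study compared tissues and stages and asked what removal of the Hox protein Ubx from mesoderm changes. The wild-type set had 2 libraries each of mesodermal nuclei (genotype twi-INTACT) and neuronal nuclei (elav>INTACT), at stages 10-13 and again at stages 14-17. The degradation set held mesodermal nuclei of stages 14-17, and all of its embryos carried twi-INTACT, a transgene for Nslmb and GFP-Ubx. In the 3 degraded libraries (twi-INTACT, Mef2>Nslmb,GFP-Ubx) Mef2 drove Nslmb, an F-box fusion that sends GFP-tagged protein to destruction. The 3 controls (twi-INTACT; UAS-Nslmb,GFP-Ubx) carried UAS-Nslmb without the driver. The tissues are thus the cells in which twi or elav switched on the tag, and degradation reached only cells in which Mef2 drove the fusion. The labels do not say whether replicates were separate embryo collections, and p-values therefore rest on a spread between libraries that may be technical.

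Counts assigned to genes ranged from 12970816 to 17905141 per wild-type mesoderm library, from 27924215 to 36150646 per neuronal library and, in the degradation set, from 24314883 to 31033963. Levels are given in CPM, the usual library-size scale, on normalised library sizes, and changes as log2 values ± SE. The summed level of 8 mesoderm and muscle markers was 8731 to 42691 CPM in wild-type mesoderm and 4342 to 6553 CPM in neuronal nuclei, but at stages 10-13 the muscle genes Mhc (mean 777 CPM in mesoderm, 2529.8 in neuronal nuclei) and bt (1179 and 1765) were higher in the neuronal libraries. The summed level of 8 neuronal markers was 608 to 835 CPM in neuronal and 230 to 251 CPM in mesodermal nuclei at stages 10-13, but 641 to 803 and 909 to 1243 CPM at stages 14-17, so the neuronal label had no support from this list at the later stage. The neuronal marker elav was at 0.0334 to 0.344 CPM in all wild-type libraries, in the neuronal ones too, and checks nothing there. The 2 sets came in tables of their own and were normalised apart, so levels from both are only set side by side.

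Of the 59 genes, 55 had enough counts to be tested in each set. MED9, a middle module subunit, Polr2D, which forms part of the polymerase II stalk, and Polr3K, a small polymerase III subunit, had 0 counts in all 14 libraries. In the Ensembl annotation (BDGP6) 100% of the exon bases of each of these genes lie under a gene on the same strand, CG42518 for MED9, Ada2a for Polr2D and Tcs1 for Polr3K. MED31, another middle module subunit (3R, 4641963 to 4643292), had 0 counts in the 8 wild-type libraries and 1264, 1341 and 1160 counts in the controls and 1115, 1315 and 1168 in the degraded libraries. Its span lies inside slx1, but exons of slx1 cover only 4.19% of its exon bases. MED23, a tail subunit, was the reverse, with 305 to 1123 counts in the wild-type libraries and 0 in all 6 libraries of the degradation set, although no exon of another gene overlaps it. Of the genes whose wild-type total reached 1000 counts, 18 of 8300 (0.217%) were at 0 throughout the degradation set. In the other direction 492 of 7511 (6.55%) were at 0 throughout the wild-type set. These zeros follow the set of tables and not the tissue or treatment, so they give no fold change. The labels do not say which strand was read. Other-strand exons cover 35.8% of the exon bases of Polr3I, 26.6% of MED21, 22.6% of MED24 and 16.3% of MED6. They also cover 15.9% of Polr2G, 15.3% of Polr2L, 13.5% of MED8, 12.5% of CycC, 10.7% of Polr1D and 10.5% of MED22. The values of these genes are uncertain for that reason, and some other members have smaller overlaps.

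Between genes, levels were compared per kb of merged exon length. At stages 10-13 in mesoderm the median was 18.9 CPM per kb over 27 Mediator genes, 32.4 over 7 polymerase I genes, 32.4 over 12 polymerase II genes and 24.0 over 9 polymerase III genes. MED26, a middle module subunit that in mammals links Mediator to elongation factors, had the highest value of any member there, at 127 ± 4.61 CPM per kb (SD, n = 2), ahead of MED19, also of the middle module, at 81.6 ± 0.408. The kinase Cdk8 was the lowest measured member, at 5.69 ± 0.0238 CPM per kb. Within the kinase module skd stood at 41.3 ± 1.63, CycC at 21.9 ± 3.44 and kto at 17.5 ± 2.18 CPM per kb, so the level of skd RNA per kb was the highest of the 4. The catalytic subunit of polymerase I, Polr1A, stood at 66.6 ± 5.39 CPM per kb, that of polymerase II, Polr2A, at 48.1 ± 0.114, and that of polymerase III, Polr3A, at 13.6 ± 0.869. MED26 had the highest value in mesoderm at both stages and in neuronal nuclei at stages 10-13, and Polr2F, a small subunit shared by all polymerases, had it in neuronal nuclei at stages 14-17 (68.9 ± 8.61 CPM per kb).

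**Figure D1:**
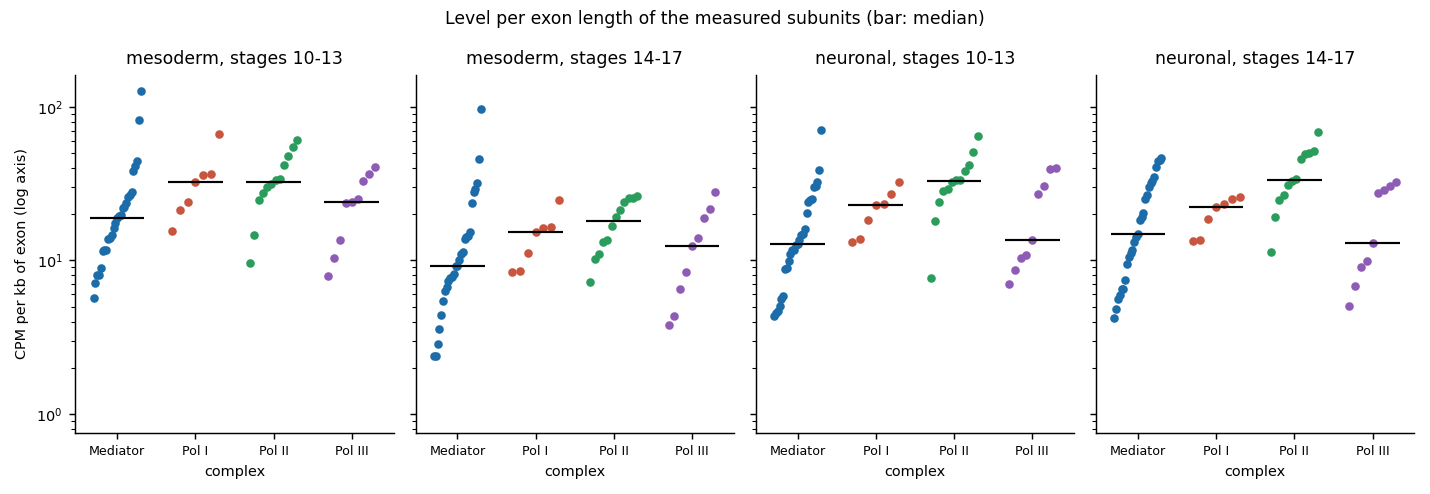
Level per kb of exon (CPM per kb, log axis) of the 55 subunit genes measured in the wild-type set, in 4 panels by tissue and stage; each point is a gene's mean over 2 libraries and each bar the median of a complex. MED26 tops the Mediator points in mesoderm at 127 and 96.7 CPM per kb, and the Mediator median in mesoderm is 18.9 at stages 10-13 and 9.26 at stages 14-17.

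Mesodermal nuclei were first set against neuronal nuclei of stages 10-13. Of 27 Mediator genes 11 were higher in mesoderm and 0 lower, while 52.8% of all tested genes passed, 23.2% higher and 29.5% lower (edgeR's quasi-likelihood test, Benjamini-Hochberg adjusted p under 0.05). The higher genes were skd and kto of the kinase module, MED14, which is the scaffold of the complex, MED15, MED23, MED24 and MED25 of the tail, MED1, MED19 and MED26 of the middle module and MED11 of the head. Of the 8 fits that leave out a library, the MED11 call was lost in 5, MED24 in 3, MED1 in 2 and MED26 in 1. Of the polymerase genes 3 of 7 for polymerase I, 2 of 12 for polymerase II and 2 of 9 for polymerase III were higher, and 0 were lower. The median log2 difference was 0.45 for Mediator, 0.62 for polymerase I, 0.00 for polymerase II, 0.04 for polymerase III and -0.08 for all tested genes. In bulk nuclei a change in RNA per nucleus and a change in the share of nuclei of a given kind cannot be told apart, here and in all comparisons below.

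In the kinase module 2 of 4 genes passed at stages 10-13. Its large subunit skd, the fly MED13 (3L, 20992814 to 21027434, minus strand), stood at 494 and 523 CPM in the mesoderm libraries and at 219 and 144 CPM in the neuronal ones. Its partner kto, the fly MED12 (3L, 19836614 to 19844944, plus strand), stood at 124 and 148 CPM in mesoderm and at 51.0 and 35.9 CPM in neuronal nuclei. Neither gene's groups overlapped, and skd was higher in mesoderm by 1.49 ± 0.23 and kto by 1.65 ± 0.24 (edgeR's quasi-likelihood test, Benjamini-Hochberg adjusted p = 0.00146 and 0.00116). The kinase gene Cdk8 stood at 8.72 and 8.67 CPM in mesoderm and 7.35 and 6.98 in neuronal nuclei, and its difference of 0.28 ± 0.26 missed the threshold (edgeR adjusted p = 0.388). Its cyclin, CycC, stood at 27.7 and 22.2 CPM against 21.7 and 24.4, with overlapping groups and a log2 difference of 0.11 ± 0.21 (edgeR adjusted p = 0.671). The difference between skd or kto and the kinase and cyclin was not itself tested, and with the exon length trend described below removed all 4 genes were higher in mesoderm (median log2 difference 0.69).

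Of all Mediator genes MED23, a tail subunit that receives activator signals, had the largest difference at stages 10-13, with 70.0 and 58.3 CPM in mesoderm against 27.2 and 13.5 CPM in neuronal nuclei. The neuronal libraries were farther apart than the mesodermal ones but did not reach them, and the log2 difference was 1.66 ± 0.37 (edgeR adjusted p = 0.00737). Mediator genes that did not pass ranged from -0.54 ± 0.23 for MED27 to 0.51 ± 0.19 for MED6.

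In polymerase I the catalytic subunit gene Polr1A stood at 319 and 357.5 CPM in mesoderm and at 174 and 156 CPM in neuronal nuclei at stages 10-13, without overlap. It was higher by 1.04 ± 0.18 (edgeR adjusted p = 0.0023), and Polr1B, the second-largest subunit, and Polr1F, of the stalk, were the other 2 of polymerase I that passed. Of the 8 fits that leave out a library, the Polr1F call was lost in 5 and the Polr1B call in 2. The log2 differences in these 8 fits ran from 0.57 to 0.88 for Polr1F and from 0.97 to 1.11 for Polr1B. In polymerase II the genes that passed were those of the largest pair of subunits, which form the active centre. They also have the most exon bases in that complex, 6736 for Polr2A and 4060 for Polr2B. Polr2B stood at 266 and 227 CPM against 144 and 126 CPM, a log2 difference of 0.87 ± 0.19 (edgeR adjusted p = 0.00678). Polr2A, whose product bears the C-terminal repeat domain (X, 11562800 to 11570326, minus strand), stood at 324 and 323 CPM against 245 and 149 CPM, a log2 difference of 0.72 ± 0.26 (edgeR adjusted p = 0.0482). The groups of both genes were apart, but the neuronal replicates of Polr2A differed widely, and its call was lost without either mesoderm library of stages 10-13 or without neuronal replicate 2, where its adjusted p reached at most 0.181 in edgeR. In polymerase III, Polr3C, of a trio of subunits that acts in initiation, stood at 53.9 and 54.2 CPM against 20.5 and 24.6 CPM, a log2 difference of 1.26 ± 0.19 (edgeR adjusted p = 0.00145). Polr3B, the second-largest subunit, also passed, while Polr3A, the catalytic subunit, stood at 57.2 and 62.6 CPM against 46.1 and 30.2 CPM and did not (0.65 ± 0.24, edgeR adjusted p = 0.0528). The 7 subunits that more than 1 polymerase shares included 0 that passed, with values from -0.61 for Polr2F to 0.17 for Polr1D. With the exon length trend removed, 6 of these 7 were higher, and their median log2 difference went from -0.18 to 0.66. The same change left 7 of 7 polymerase I, 9 of 12 polymerase II and 3 of 9 polymerase III genes higher, against 3079 of all 10549 tested genes. Normalising by library totals alone left 7 Mediator and 5 polymerase genes higher and made MED27 and Polr2F lower.

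The same tissues were compared at stages 14-17. Here most subunit genes that differed were lower in mesoderm. Of 27 Mediator genes 16 were lower and 2 higher, while 41.1% of all tested genes passed, 22.1% lower and 19% higher (edgeR's quasi-likelihood test, Benjamini-Hochberg adjusted p under 0.05). All 9 head module genes were lower, but without either later mesoderm library only MED8 and MED22 kept the call, and with the exon length trend removed 3 of the 9 were lower. Of the polymerase genes 2 of 7, 9 of 12 and 3 of 9 were lower for polymerases I, II and III, and 0 were higher. The median log2 difference was -0.89 for Mediator, -0.52 for polymerase I, -1.13 for polymerase II and -0.42 for polymerase III, against -0.12 for all tested genes. Without the shared subunits it was -0.42 for polymerase I and -0.92 for polymerase II, and for the 7 shared subunits it was -1.18. Counts of calls depended on the later mesoderm libraries. Without either of them fewer Mediator and polymerase genes passed, the fewest without replicate 1, and fewer of all tested genes passed as well.

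The 2 Mediator genes that were higher in mesoderm at stages 14-17 were skd and MED26. The level of skd was 409 and 371 CPM in mesoderm and 179 and 170.5 CPM in neuronal nuclei, a log2 difference of 1.16 ± 0.22 (edgeR adjusted p = 0.0073). MED26 (chromosome 4, 778516 to 788978, minus strand) stood at 530.1 and 451 CPM against 241 and 214 CPM, a log2 difference of 1.11 ± 0.22 (edgeR adjusted p = 0.00756), and without mesoderm replicate 1 of this stage its adjusted p was 0.0554. In both genes the mesoderm libraries lay far above the neuronal ones. The other kinase module genes went different ways. Cdk8 stood at 3.81 and 3.51 CPM in mesoderm and 6.43 and 8.26 in neuronal nuclei, a log2 difference of -1.002 ± 0.27 (edgeR adjusted p = 0.0214). CycC stood at 15.1 and 17.5 CPM against 27.9 and 29.1, a log2 difference of -0.81 ± 0.21 (edgeR adjusted p = 0.0196). The groups did not overlap in either gene, but both calls were lost without either mesoderm library of this stage (adjusted p up to 0.109 and 0.145). For kto the levels were 75.0 and 69.1 CPM against 56.7 and 44.2, and the log2 difference of 0.51 ± 0.23 did not pass (edgeR adjusted p = 0.111).

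**Figure D2:**
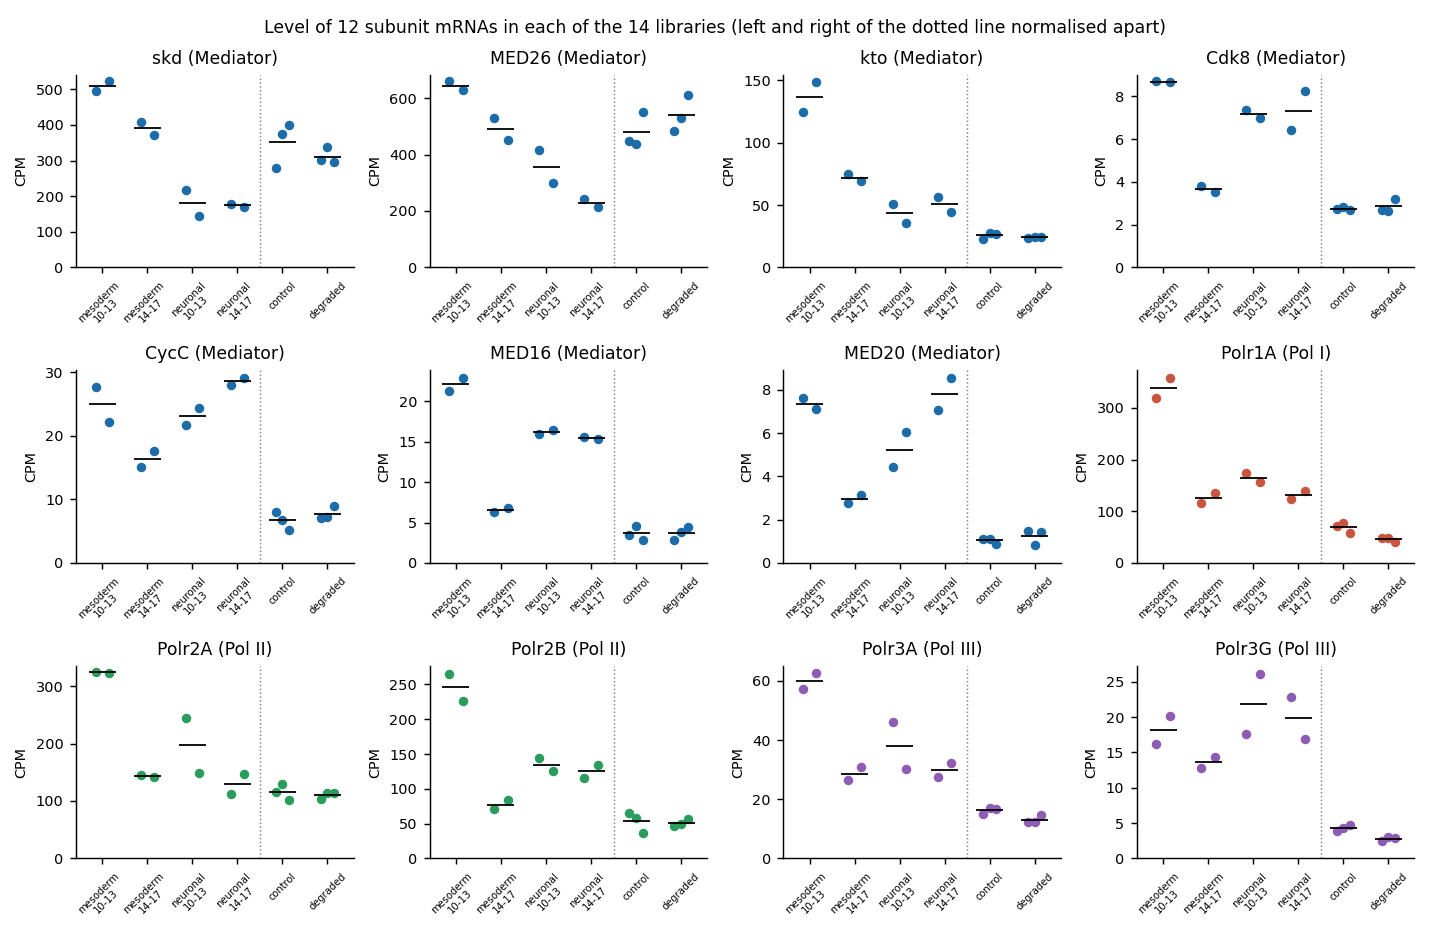
Level in CPM (linear axes from 0) of 12 subunit genes in each of the 14 libraries, by tissue and stage or treatment; points are libraries, bars are group means, and the sets left and right of the dotted line were normalised apart. In mesoderm skd goes from 494 and 523 to 409 and 371 CPM between the stages, while Polr2B goes from 266 and 227 to 70.8 and 84.2 CPM.

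The most negative difference among Mediator genes at stages 14-17 was that of MED22, a head module subunit (X, 928139 to 928860, plus strand). It stood at 6.27 and 6.92 CPM in mesoderm and at 20.3 and 21.7 CPM in neuronal nuclei, a log2 difference of -1.67 ± 0.24 (edgeR adjusted p = 0.00299). The groups lay well apart, and the call held without each library in turn. The other 8 head genes ranged from -0.61 ± 0.19 for MED6 to -1.39 ± 0.30 for MED20. The scaffold gene MED14 differed by 0.28 ± 0.22 and did not pass, and of the 6 tail genes MED16 and MED27 were lower.

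In polymerase II the shared subunit gene Polr2H stood at 10.96 and 12.3 CPM in mesoderm and at 29.6 and 39.3 CPM in neuronal nuclei at stages 14-17, a log2 difference of -1.56 ± 0.27 (edgeR adjusted p = 0.00489). Polr2C, an assembly subunit of polymerase II, stood at 8.89 and 10.9 CPM against 24.4 and 27.5, a log2 difference of -1.39 ± 0.25 (edgeR adjusted p = 0.00552). These groups were apart, though without mesoderm replicate 1 of this stage the adjusted p was 0.0547 for Polr2H and 0.0615 for Polr2C. Polr2A stood at 145 and 141 CPM against 112 and 147, with overlapping groups (0.14 ± 0.26, edgeR adjusted p = 0.679). In polymerase III, Polr3A overlapped between the tissues, at 26.4 and 30.8 CPM in mesoderm and 27.7 and 32.3 CPM in neuronal nuclei (-0.07 ± 0.24, edgeR adjusted p = 0.839). In polymerase I the stalk gene Polr1F stood at 8.81 and 9.62 CPM against 13.2 and 16.1 (-0.67 ± 0.22, edgeR adjusted p = 0.047), and this call was lost in 6 of the 8 fits that leave out a library (adjusted p up to 0.225). Polr1A stood at 116 and 135 CPM against 125 and 140 and overlapped (-0.08 ± 0.17, edgeR adjusted p = 0.735).

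The tissue difference ran with exon length. Over the 55 measured members Spearman's rho between merged exon length and the log2 difference was 0.78 at stages 10-13 and 0.70 at stages 14-17, against 0.32 and 0.52 over 10352 genes with a known length. These are descriptions over genes of the same libraries, not over independent samples. At stages 10-13, 14 of 18 members of 2000 exon bases or more were higher in mesoderm, against 2 of 28 members under 1200 bases. Over all genes the counts were 1897 of 5154 and 173 of 2511. At stages 14-17, 23 of the 28 short members were lower and 0 higher, and of the 18 long members 4 were lower and 2 higher. Over all genes, 1036 of 2511 short ones were lower and 144 higher, and of 5154 long ones 374 were lower and 1607 higher. The longest member, skd, has 12307 exon bases, and MED22 has 602.

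Several properties of the libraries moved with this pattern. Genes under 1200 exon bases took 6.35 to 7.29% of counts in wild-type mesoderm and 13.3 to 23.3% in neuronal libraries. Genes of the mitochondrial genome took 0.874 to 1.51% and 1.78 to 6.94%. A slope also appeared between the neuronal replicates of stages 10-13, where the log2 ratio of replicate 1 to replicate 2 had a rho of 0.90 with exon length across the 55 members. The other wild-type pairs had a rho of -0.21 (mesoderm, stages 10-13), -0.10 (mesoderm, stages 14-17) and 0.05 (neuronal, stages 14-17). Their part in the tissue differences was not tested. With the trend of log counts on exon length removed from each library, an alternative chosen after seeing the data, 22 Mediator and 19 polymerase genes passed at stages 10-13, all higher in mesoderm, while of all 10549 tested genes 3079 were higher and 2761 lower. At stages 14-17 it gave 10 lower in each and 0 higher, against 1324 higher and 1545 lower of all genes. At that stage it turned the sign of skd (-0.37, edgeR adjusted p = 0.108), of kto (-0.65, adjusted p = 0.0234) and of Polr2A (-0.92, adjusted p = 0.0236), and it left MED26 at 0.32 (adjusted p = 0.144). With that correction, then, neither skd nor MED26 was called higher in later mesoderm.

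**Figure D3:**
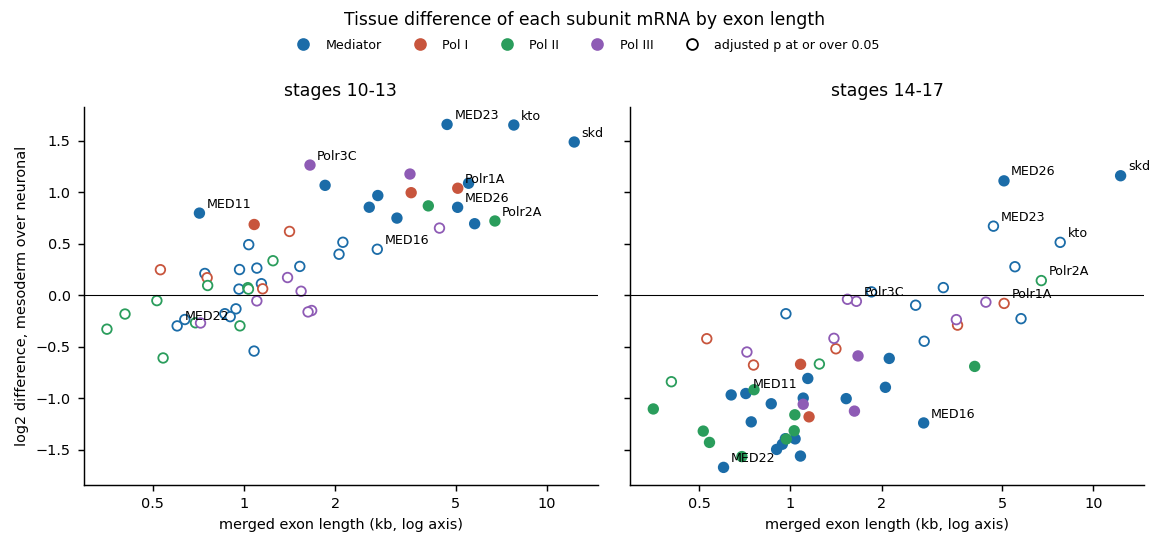
Log2 difference of mesoderm over neuronal nuclei for the 55 measured subunit genes against merged exon length (kb, log axis), at stages 10-13 (left) and 14-17 (right); filled points passed the test at adjusted p under 0.05. Values climb with length in both panels (rho 0.78 and 0.70), and the complexes' medians lie lower at stages 14-17.

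The stage change was measured next, in mesoderm. The level of every one of the 55 measured members was lower at stages 14-17 than at stages 10-13, and 42 passed the test, a fall of 21 of 27 Mediator genes, 6 of 7 polymerase I genes, 7 of 12 polymerase II genes and 8 of 9 polymerase III genes (edgeR's quasi-likelihood test, Benjamini-Hochberg adjusted p under 0.05). Of all tested genes 47.7% passed, 22.7% falling and 24.9% rising. The median log2 change was -0.88 for Mediator, -1.15 for polymerase I, -0.88 for polymerase II and -1.07 for polymerase III, against 0.00 for all tested genes. Without the shared subunits it was -1.26 for polymerase I and -1.17 for polymerase II, and for the 7 shared subunits it was -0.72. Together the members took 0.388% of counts in both mesoderm libraries of stages 10-13 and 0.193% in both of stages 14-17. Over the same interval the summed level of the 8 mesoderm and muscle markers went from 8731 and 9758 CPM to 38408 and 42691 CPM, carried by Mhc, sls and bt, while the means of Mef2 (1140.1 to 766), sns (2228 to 817) and lmd (572 to 90.7) were lower at the later stage. The summed level of the 8 neuronal markers went from 230 and 251 to 909 and 1243 CPM. Their part in the fall was not tested. With any mesoderm library left out fewer Mediator and polymerase genes passed, the fewest without replicate 1 of stages 14-17. Fewer of all tested genes passed in these fits as well.

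MED16, a tail subunit, fell the most among Mediator genes, from 21.3 and 22.9 CPM to 6.27 and 6.83 CPM in mesoderm, a log2 change of -1.75 ± 0.20 (edgeR adjusted p = 0.000667). All 6 tail genes fell, as did 7 of 9 head genes and the scaffold gene MED14. Without mesoderm replicate 1 of stages 14-17, 0 of these 7 head calls and 3 of the 6 tail calls (MED16, MED25 and MED27) were kept. In the kinase module, with the levels given above, Cdk8 fell by 1.25 ± 0.27 and kto by 0.92 ± 0.23 (edgeR adjusted p = 0.00745 and 0.0146), and CycC fell by 0.61 ± 0.21 (edgeR adjusted p = 0.0442). The kto call was lost without 3 of the 8 libraries, namely mesoderm replicate 2 of stages 10-13 and either of stages 14-17 (adjusted p up to 0.0691). The CycC call was lost without 6 of them (adjusted p up to 0.24), and with DESeq2 it did not pass (adjusted p = 0.06). The change of skd, -0.38 ± 0.22, did not pass (edgeR adjusted p = 0.193). The 6 Mediator genes that did not pass were skd, MED26, MED10, MED21, MED18 and MED8.

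In polymerase I, Polr1A went from 319 and 357.5 to 116 and 135 CPM in mesoderm and fell by 1.43 ± 0.18 (edgeR adjusted p = 0.000849). In polymerase II, Polr2B went from 266 and 227 to 70.8 and 84.2 CPM and fell by 1.67 ± 0.19 (edgeR adjusted p = 0.000647), and Polr2A, at 324 and 323 before and 145 and 141 CPM after, fell by 1.18 ± 0.26 (edgeR adjusted p = 0.00838). In each of these both later libraries lay below both earlier ones. Polr2E, a subunit shared by all polymerases, went from 33.6 and 28.2 to 14.8 and 13.3 CPM and fell by 1.13 ± 0.23 (edgeR adjusted p = 0.00636). In polymerase III, Polr3B went from 85.1 and 80.8 to 23.9 and 35.2 CPM and fell by 1.49 ± 0.26 (edgeR adjusted p = 0.00327). Polr3A went from 57.2 and 62.6 to 26.4 and 30.8 CPM and fell by 1.07 ± 0.24 (edgeR adjusted p = 0.0097), a call lost without mesoderm replicate 1 of stages 14-17 (adjusted p = 0.0589). The Polr1A, Polr2A, Polr2B, Polr2E and Polr3B calls held without each library in turn.

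In neuronal nuclei the same stages gave 1 rise and 0 falls among the 55 members, while 20.4% of all tested genes passed, 8.47% rising and 12% falling (edgeR's quasi-likelihood test, Benjamini-Hochberg adjusted p under 0.05). At an unadjusted p under 0.05 there were 10 of 55 members and 3837 of all 10549 genes, and DESeq2 called 2 Mediator genes and 0 polymerase genes. MED8, a head module subunit, stood at 9.38 and 11.8 CPM at stages 10-13 and at 19.0 and 20.1 CPM at stages 14-17 and rose by 0.88 ± 0.22 (edgeR adjusted p = 0.0324). Its groups were apart, but the call was lost in 6 of the 8 fits without a library, the exceptions being those without a neuronal library of stages 14-17 (adjusted p up to 0.17). The median log2 change was 0.22 for Mediator, -0.01 for polymerase I, 0.17 for polymerase II and -0.26 for polymerase III, against -0.03 for all genes. All 9 head module genes had positive values, from 0.18 to 0.88, against 5097 of all 10549 genes and 1446 of 2511 under 1200 exon bases. The neuronal change ran against exon length, with a rho of -0.72 over 27 Mediator genes, -0.55 over 28 polymerase genes and -0.17 over all genes. The catalytic subunits had negative ones, -0.32 ± 0.17 for Polr1A, -0.60 ± 0.26 for Polr2A and -0.35 ± 0.24 for Polr3A, and did not pass (edgeR adjusted p = 0.23, 0.137 and 0.331). The kinase module genes lay between -0.05 for skd and 0.31 for CycC, and 0 of the 4 passed.

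The stage changes themselves were compared between the tissues with an interaction term, mesoderm minus neuronal. This difference was negative for 54 of 55 members, MED26 being the exception at 0.26 ± 0.30, and it passed for 19 of 27 Mediator, 5 of 7 polymerase I, 8 of 12 polymerase II and 2 of 9 polymerase III genes (edgeR's quasi-likelihood test, Benjamini-Hochberg adjusted p under 0.05). Of all tested genes 35.4% passed, 14.7% in that direction and 20.6% in the other. The medians were -1.13, -1.14, -1.05 and -0.72 in that order, against -0.11 for all genes. The comparison uses the same 8 libraries as those above, so it is no independent evidence. With any mesoderm library left out it passed for fewer Mediator and polymerase genes, the fewest without replicate 1 of stages 14-17. It also passed for fewer polymerase genes without neuronal replicate 1 of stages 10-13. In each of these fits it passed for fewer of all tested genes as well.

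The head module subunit MED20 (2L, 8071812 to 8072848, minus strand) had the largest difference of stage changes. It went from 7.60 and 7.10 to 2.78 and 3.15 CPM in mesoderm and from 4.41 and 6.04 to 7.05 and 8.53 CPM in neuronal nuclei. The libraries moved apart in opposite directions, by a difference of -1.88 ± 0.41 (edgeR adjusted p = 0.012), which became 0.0626 without mesoderm replicate 1 of stages 14-17. In the polymerases the most negative values were those of Polr1F (-1.36 ± 0.31), Polr2B (-1.56 ± 0.27), Polr3B (-1.41 ± 0.36) and, of the shared subunits, Polr2E (-1.39 ± 0.33). Of these the Polr2B call held without each library (edgeR adjusted p = 0.00444 in the fit of all libraries), and the others were lost without at least 3 of them (adjusted p up to 0.0668 for Polr1F, 0.0629 for Polr3B and 0.0578 for Polr2E). Polr1A differed by -1.12 ± 0.25 and kept its call as well (edgeR adjusted p = 0.0121). Polr2A and Polr3A, at -0.58 ± 0.36 and -0.72 ± 0.34, did not pass (edgeR adjusted p = 0.248 and 0.137). In the kinase module Cdk8 (-1.28 ± 0.37), kto (-1.14 ± 0.33) and CycC (-0.92 ± 0.29) passed and skd (-0.33 ± 0.31) did not (edgeR adjusted p = 0.0317, 0.032, 0.0446 and 0.441). These 3 calls were each lost without 4 or more of the 8 libraries (adjusted p up to 0.087, 0.0776 and 0.148). The rho of this difference with exon length was 0.40 over 27 Mediator genes, -0.12 over 28 polymerase genes and 0.08 over all genes.

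**Figure D4:**
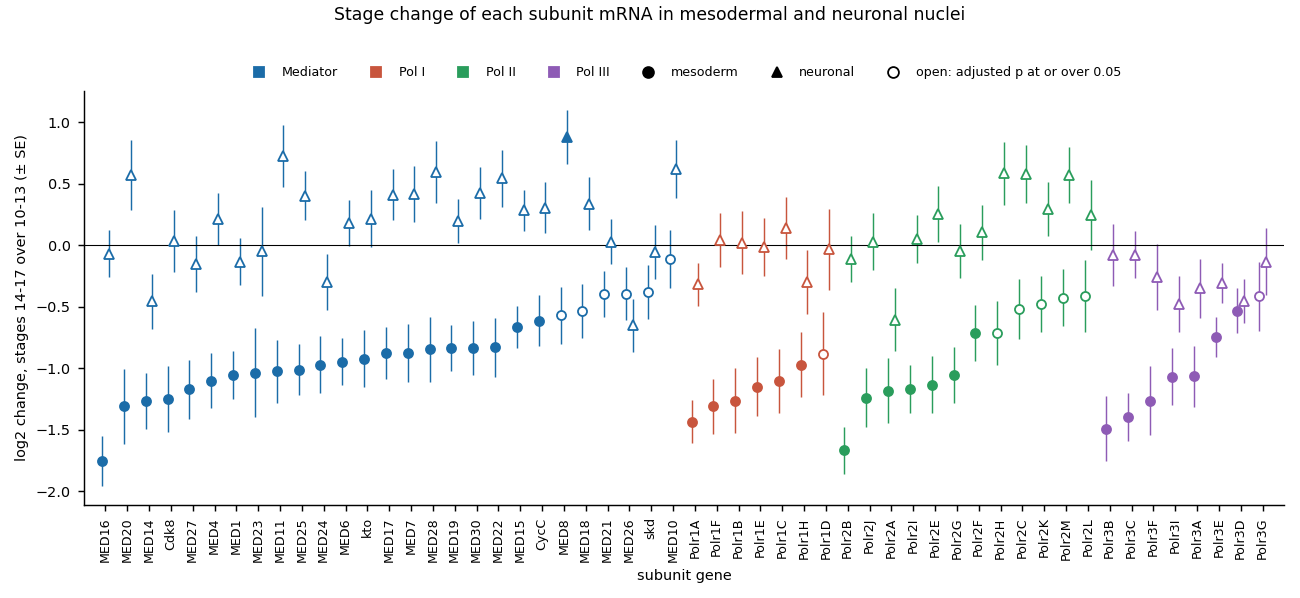
Log2 change from stages 10-13 to 14-17 (± SE) of 54 measured subunit genes in mesodermal (circles) and neuronal nuclei (triangles), coloured by complex; filled symbols passed the test at adjusted p under 0.05. All 54 circles shown lie below 0 and 41 are filled, while the triangles scatter around 0 and MED8 alone is filled.

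Other genes of the transcription machinery were read from lists of the general factors of polymerase II, its pausing and elongation factors, and factors of polymerases I and III. In mesoderm between the stages 23 of 30, 17 of 26 and 6 of 6 of them fell and 0 rose, against 22.7% of all tested genes that fell (edgeR's quasi-likelihood test, Benjamini-Hochberg adjusted p under 0.05). The median log2 changes were -0.90, -0.77 and -1.17. The calls with the smallest adjusted p in each list were Taf2, a subunit of the promoter-binding factor TFIID (-1.34 ± 0.18), Ssrp, a subunit of the histone chaperone FACT (-2.36 ± 0.20), and TAF1B, a polymerase I initiation factor (-2.22 ± 0.23). In neuronal nuclei 1, 3 and 1 fell and 0, 2 and 0 rose, against 12% of all tested genes falling and 8.47% rising. The calls in these lists included dre4, the other FACT subunit (-0.77 ± 0.18), TAF1B (-0.85 ± 0.22), the TFIIH subunit Ssl1 (-0.63 ± 0.18) and CycK, a cyclin of elongation kinases (0.81 ± 0.20). The difference of stage changes was negative and passed for 14, 13 and 3 of the listed genes and passed in the other direction for 0. Over all tested genes it was negative and passed for 14.7% and passed in the other direction for 20.6%. Taf9 stood at -1.66 ± 0.33, Ssrp at -1.61 ± 0.27 and TAF1B at -1.37 ± 0.31.

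Between the tissues at stages 10-13, 6 of 30 general factors, 14 of 26 elongation factors and 4 of 6 polymerase I and III factors were higher in mesoderm and 0 lower, against 23.2% of all tested genes higher, a share that the general factors did not exceed. The smallest adjusted p in each list was that of the TFIID subunit Taf3 (1.46 ± 0.21), lilli, a scaffold of the elongation complex (1.91 ± 0.19), and the polymerase I factor Tif-IA (0.90 ± 0.16). At stages 14-17, 2 of 30 general factors were higher and 15 lower, and 6 of 26 elongation factors were higher and 8 lower. Of 6 polymerase I and III factors 1 was lower. Over all tested genes 19% were higher and 22.1% lower. Taf3 and lilli were still higher (1.25 ± 0.21 and 2.55 ± 0.20), and Taf9 (-1.84 ± 0.24), the pausing factor gene Nelf-E (-1.20 ± 0.22) and Trf, a TBP relative used by polymerase III in the fly (-0.96 ± 0.25), were lower. The Mediator gene ix, the fly MED29, falls outside the symbols chosen. It was lower in mesoderm at stages 14-17 (-0.79 ± 0.22), rose in neuronal nuclei (0.79 ± 0.22) and differed in its stage change (-1.24 ± 0.32).

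The last comparison set degraded against control libraries of the degradation set. Of 27 Mediator genes 0 passed, and 1 had an unadjusted p under 0.05, against 2891 of all 11641 genes. DESeq2 also called 0. Of 28 polymerase genes 1 was lower and 0 higher, while 4.78% of all tested genes passed, 1.21% lower and 3.57% higher (edgeR's quasi-likelihood test, Benjamini-Hochberg adjusted p under 0.05). The median log2 difference was 0.02 for Mediator, -0.59 for polymerase I, -0.30 for polymerase II and -0.32 for polymerase III, against -0.01 for all genes. Of the 28 polymerase genes 25 had negative values, against 6011 of 11641 for all genes, and 11 had an unadjusted p under 0.05. Among all genes under 1200 exon bases 1864 of 2932 were negative. With the exon length trend removed the median was -0.58 for polymerase I, -0.13 for polymerase II and -0.39 for polymerase III, against -0.01 for all genes.

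Of the genes that did not pass, Polr1A stood at 71.0, 77.3 and 57.6 CPM in the controls and at 47.9, 48.4 and 40.5 CPM in the degraded libraries. Every degraded library lay below every control, but the difference missed the threshold (-0.59 ± 0.15, edgeR adjusted p = 0.0606). DESeq2 called it (adjusted p = 0.0114). Polr3G, of the initiation trio of polymerase III, stood at 3.91, 4.35 and 4.68 CPM against 2.43, 3.09 and 2.95 CPM, apart but not past the threshold (-0.61 ± 0.19, edgeR adjusted p = 0.104). Without control replicate 3, 7 polymerase genes and 1 Mediator gene passed, all lower, and without any other library 0 did. Calls over all genes moved as well, from 557 (141 lower) to 1645 (892 lower) without control replicate 3 and to between 34 and 316 without another library. In control replicate 3 mitochondrial genes took 1.39% of counts, against 5.95 and 3.57% in the other controls.

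Polr2A stood at 114.951, 130.2 and 103 CPM in the controls and at 104, 114 and 114 CPM in the degraded libraries, with overlapping groups (-0.07 ± 0.13, edgeR adjusted p = 0.781). Polr3A stood at 15.1, 17.1 and 16.7 CPM against 12.5, 12.2 and 14.7 CPM; these groups did not overlap and the difference of -0.31 ± 0.15 did not pass (edgeR adjusted p = 0.224). In the kinase module skd stood at 279.8, 376 and 399 CPM against 301, 337 and 296 CPM, with overlap (-0.18 ± 0.15, edgeR adjusted p = 0.53). The level of kto was 22.7, 27.6 and 26.6 CPM against 23.4, 24.7 and 24.7 (-0.08 ± 0.13, edgeR adjusted p = 0.77). Cdk8 stood at 2.74, 2.81 and 2.68 CPM against 2.71, 2.66 and 3.19 (0.06 ± 0.19, edgeR adjusted p = 0.891), and CycC at 8.07, 6.75 and 5.23 CPM against 7.04, 7.17 and 8.97 (0.21 ± 0.21, edgeR adjusted p = 0.584). All 4 kinase module genes overlapped between the groups. MED31, which only this set measures, stood at 44.9, 42.9 and 49.3 CPM against 45.1, 46.65 and 47.2 (0.02 ± 0.12, edgeR adjusted p = 0.942). Of the general, elongation and polymerase I and III factors 0 of 31, 0 of 26 and 0 of 7 passed, and 3, 2 and 1 had an unadjusted p under 0.05, shares below that over all genes.

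Other values also differed between these groups. Mitochondrial genes took 1.39 to 5.95% of control counts and 0.874 to 1.06% of degraded ones, and genes under 1200 exon bases 5.001 to 7.96% and 4.50 to 5.87%. The summed level of 5 epidermis and trachea markers was 559 to 625 CPM in control and 1033 to 1172 CPM in degraded libraries. By gene the means were 244 and 583 CPM for serp, 119 and 214 for shg, 30.0 and 55.0 for trh, 204 and 247 for grh and 1.73 and 1.41 for Cpr47Ec. For 4 hemocyte markers the sum was 483 to 645 and 387 to 478 CPM. Of the hemocyte markers, mean Hml was 252 and 93.3 CPM, while Pxn (164 and 159), srp (141 and 158) and NimC1 (23.8 and 21.3) did not show a like difference in their means. Over the 55 members the log2 difference had a rho of 0.35 with exon length, against 0.21 over 11151 genes. Slopes with length also appeared between replicates of the same group. The log2 ratio of control replicates 1 to 2, 1 to 3 and 2 to 3 had a rho of -0.52, -0.52 and -0.33 over the members. For the same pairs of degraded replicates the rho was -0.47, -0.30 and 0.02. Their part in the polymerase values was not tested. Set beside the wild-type mesoderm of stages 14-17, the controls stood at 57.6 to 77.3 CPM of Polr1A against 116 and 135, and at 439 to 552 CPM of MED26 against 451 and 530.1. The tables were made and normalised apart, and no test was run between them.

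**Figure D5:**
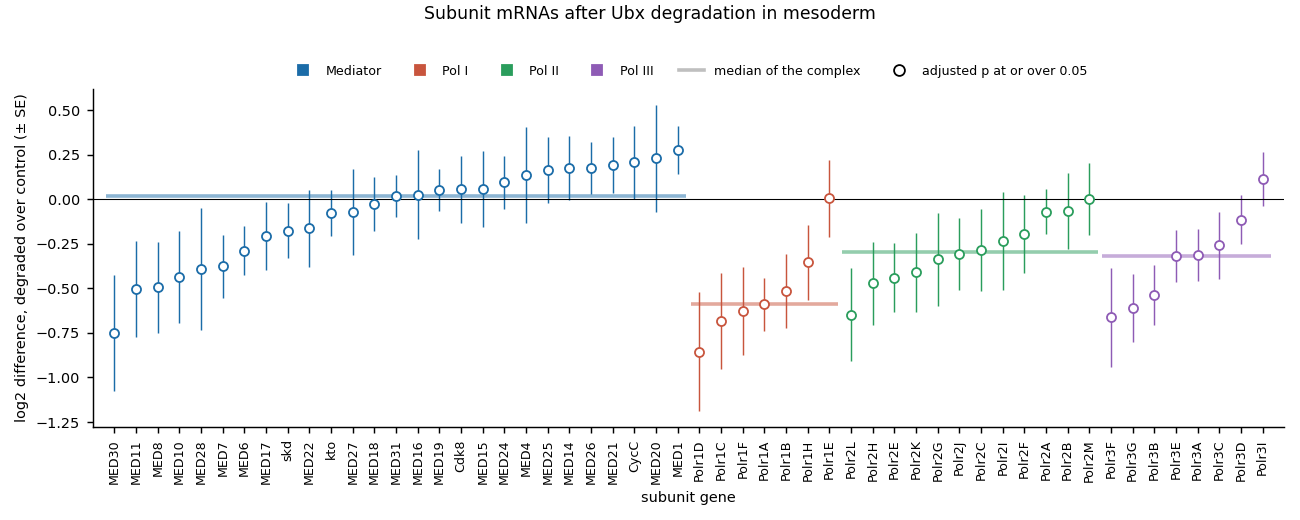
Log2 difference (± SE) of degraded over control libraries for 54 subunit genes measured in the degradation set, coloured by complex, with a bar at each complex's median over all its measured genes; open symbols did not pass the test at adjusted p under 0.05. Mediator values lie on both sides of 0 (median 0.02), 24 of 27 polymerase values shown lie below it, and all 54 symbols are open.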

How the data were processed

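RNA of INTACT-isolated embryonic nuclei was measured in 14 libraries. The authors deposited unnormalised counts of reads for each gene. The submitters' processing notes list HTSeq and FastQC with the builds BDGP6 and dm6; for the aligner, versions, strand setting and annotation, the sources used here give nothing. The rows of unassigned reads in the degradation tables (51.1 to 57.3% of reads) stayed out of library sizes and tests. Gene symbols, exon lengths and overlaps came from Ensembl release 115 on BDGP6.

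Low genes were dropped with filterByExpr at a minimum count of 10 and total of 15, leaving 10549 genes in the wild-type and 11641 in the degradation set. Counts were scaled by TMM. The test was the quasi-likelihood F-test of edgeR, with p-values adjusted by Benjamini and Hochberg's method over all genes at 5%, in 1 fit per set, each with 4 residual degrees of freedom, for 6 comparisons. Common biological coefficients of variation were 0.277 and 0.191. The scripts were tested on simulated data. Tools were R 4.3.3 with DESeq2 1.42.0, edgeR 4.0.16 and limma 3.58.1, and Python 3.11.15 with numpy 2.4.6, pandas 2.3.3, scipy 1.17.1 and matplotlib 3.10.9.

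The members and lists were chosen with earlier results of these data known. Per-library values are given for the called member with the largest difference in each direction per complex, the catalytic subunits Polr1A, Polr2A and Polr3A, the kinase module, members at 0 and, for degradation, the 3 smallest p-values; MED26 was added after its values were seen. A member that this rule selects is counted in the totals but not reported here. In the other lists the call with the smallest adjusted p in each direction is named. Alternatives were DESeq2, RLE size factors, library totals alone, no filter, a fit of only the libraries compared, a replicate block, each library left out and, chosen after seeing the data, removal of the exon length trend (a lowess fit with span 0.3, lengths known for 98.1 and 95.8% of tested genes). No sequences are shown.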

Additional observations from a re-analysis of the deposited data

Results flagged for a closer look

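The change between stages differed between mesodermal and neuronal nuclei for 34 of the 55 measured subunit genes, by the interaction term in edgeR (adjusted p under 0.05 over all genes). Of all tested genes 35.4% passed, 14.7% with a negative and 20.6% with a positive difference. Most of the 34 calls were lost in some fit that left out a library. The values are the log2 stage change in mesoderm minus that in neuronal nuclei. For Mediator they were MED20 (-1.88), MED11 (-1.75), MED16 (-1.68), MED8 (-1.45), MED28 (-1.44), MED25 (-1.41), MED22 (-1.37), MED4 (-1.31), MED7 (-1.29), MED17 (-1.29), Cdk8 (-1.28), MED30 (-1.26), kto (-1.14), MED6 (-1.13), MED19 (-1.03), MED27 (-1.02), MED15 (-0.95), MED1 (-0.92) and CycC (-0.92). For polymerase I they were Polr1F (-1.36), Polr1B (-1.28), Polr1C (-1.24), Polr1E (-1.14) and Polr1A (-1.12). For polymerase II they were Polr2B (-1.56), Polr2E (-1.39), Polr2H (-1.30), Polr2J (-1.27), Polr2I (-1.22), Polr2C (-1.10), Polr2G (-1.01) and Polr2M (-1). For polymerase III they were Polr3B (-1.41) and Polr3C (-1.32). Every listed gene had a negative stage change in mesoderm, but not all of them passed the test there, MED8 being among those that did not. In neuronal nuclei MED8 alone passed.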

How the results depend on the processing

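With the exon length trend removed, skd (-0.37), kto (-0.65) and Polr2A (-0.92) turned negative in mesoderm against neuronal nuclei at stages 14-17. No named member that passed the test changed sign under another alternative, but several that did not pass did, among them CycC at stages 10-13 (-0.14) and Polr2A at stages 14-17 (-0.15) with library totals alone. Removing that trend gave 22 Mediator and 19 polymerase genes at stages 10-13, 10 Mediator genes at stages 14-17, 2 Mediator genes in the neuronal stage change and 2 polymerase genes after degradation. DESeq2 gave 2 in each of the last 2 results. Library totals alone, or only the 4 libraries compared, gave 0 Mediator genes in the neuronal stage change. Library totals moved the median of all genes to -0.33 at stages 10-13, -0.42 at stages 14-17 and -0.16 and -0.15 in the mesoderm and neuronal stage changes.

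Without each library in turn, Mediator and polymerase calls ranged from 8 to 13 and 5 to 10 (tissues, stages 10-13), 7 to 18 and 2 to 18 (tissues, stages 14-17), 6 to 22 and 11 to 23 (mesoderm stage change), 0 to 2 and 0 to 2 (neuronal stage change), 4 to 22 and 2 to 19 (difference of stage changes) and 0 to 1 and 0 to 7 (degradation). A lone remaining library is assumed to vary like the other groups. Calls kept in all such fits were 11 of 18, 8 of 32, 17 of 42, 0 of 1, 5 of 34 and 0 of 1, with 0 changes of sign. The cause was not tested.

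Replicate numbers were not taken to pair the samples. Deviations of same-numbered libraries correlated at -0.141 to 0.163 in the wild-type set. In the degradation set they correlated at 0.217, 0.0887 and 0.272, against -0.262 to 0.102 for other pairs, and control replicate 2 correlated best with another number. There the replicate block took calls over all genes from 557 to 1238. The replicate block gave 2 polymerase calls after degradation in place of 1, with Polr1A added, and 11, 18, 19, 1, 17 and 0 Mediator calls in the 6 comparisons. Tested members were lowest in the degradation set, down to 0.727 CPM (MED30), and 2.78 CPM (MED20) in the wild-type set.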
